A study of Mus musculus with 6 samples.

Results

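The enzymes described here carry out the tricarboxylic acid cycle, the mitochondrial pathway that oxidises acetyl-CoA. They were followed in mouse cortical precursor cells given an antisense inhibitor of miR-335, a microRNA. The 9 genes are Cs, Idh3a, Idh3b, Idh3g, Ogdh, Sucla2, Suclg1, Fh1 and Mdh2, and their members on the array are the gene probes to which the platform annotation gives one of these symbols and no other. That rule finds 11 probes among 34967 gene probes, and 9 genes among the 18069 that the array measures with a single symbol. The genes were chosen by their anti-miR-335 and control intensities on these same arrays, so their differences between the groups are given as a description and no test of them is reported.

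The anti-miR-335 cultures, labelled 2' O Me-335 and miR-335KO, were neurospheres transfected with an antisense oligonucleotide of 2'-O-methyl bases against miR-335 (n = 3). The controls were neurospheres transfected with the nonsense oligonucleotide of the same chemistry that the labels call 2' O Me-EGFP (n = 3). In both groups the cells were dissected from the dorsal telencephalon on embryonic day 12.5, from C57BL/6 fetuses, and grew as floating clusters. Their medium held no serum; it was supplied with EGF and bFGF at 20 ng/ml and with LIF at 0.15 ng/ml. A treatment length of 24 is stated without a unit, and the labels say neither how many fetuses were pooled nor what was repeated for a replicate, so the spread between arrays may be partly technical. Antisense oligonucleotides of this kind bind a microRNA and leave its gene in place, whatever the letters KO in the label. RNA was read on single-colour CodeLink arrays, and every intensity below is in units of the array's median.

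The microRNA is shown because the oligonucleotide of the anti-miR-335 cultures was directed against it. The labels do not say which arm was targeted. The mature sequences of RefSeq (GRCm38.p6, plus strand, chr6:30741314-30741336 for the 5p arm and chr6:30741354-30741375 for the 3p arm) have the seed, bases 2 to 8, in capitals.
mmu-miR-335-5p: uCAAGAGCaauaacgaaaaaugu
mmu-miR-335-3p: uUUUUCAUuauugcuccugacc

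In the cycle, acetyl-CoA joins oxaloacetate to form citrate, and a round of oxidations then releases carbon dioxide, fills the NADH and FADH2 pools that feed the respiratory chain, and restores oxaloacetate. NAD-dependent isocitrate dehydrogenase and 2-oxoglutarate dehydrogenase are its main controlled steps. Neural precursors rely strongly on glycolysis, and the share of oxidation in the mitochondria is known to grow as they become neurons.

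Control replicate 1 stood apart from the other control arrays. Among the 17843 gene probes above background on all 6 arrays, control replicates 2 and 3 were the lowest pair of the 6 for 26.1%, and control replicate 1 was the highest array for 31.3%. With all 6 arrays, limma called 0 of 34847 probes at an adjusted p of 0.05 (0%), and 3162 (9.07%) had an unadjusted p under 0.05, 4.91% of all probes as higher and 4.17% as lower. Without control replicate 1, 786 of 34654 probes (2.27%) passed as higher and 314 (0.906%) as lower. Leaving out any other single array gave 0 or 1 calls. Each difference below is therefore given with control replicate 1 and, where it matters, without it. That array was singled out after the values were seen, and 2 controls remain without it. The p-values without it are therefore given as a description. Markers of neural precursors (Nes, Sox2, Pax6, Vim, Fabp7, Slc1a3) were above background on all 6 arrays, 6 of 6. None of the 4 measured microglial, 5 endothelial, 5 mesenchymal or 3 erythroid markers was above background on all 6. Ptprc, Pecam1, Cdh5 and Col1a1 were above it on no array, but others of these lists were on some. Microglial Cx3cr1 was above it on 3 anti-miR-335 and 2 control arrays. Endothelial Kdr was above it on 2 anti-miR-335 and 3 control arrays, and Tek on 3 and 0.

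Over the 9 genes, each taken at its brightest probe, 8 log2 differences were positive and 1 negative, with a median of 0.19 and a range of -0.08 to 0.85. The median over all gene probes tested was 0.01, and over those above background on all 6 arrays it was 0.03, of which 55.6% were positive. Without control replicate 1 the median of the 9 genes was 0.17 and that of the probes above background 0.07. The median of the 9 genes on each array, set against the control mean, was 0.13, 0.28 and 0.16 on anti-miR-335 replicates 1, 2 and 3, against 0.03, -0.05 and 0.04 on control replicates 1, 2 and 3. All 3 anti-miR-335 arrays thus lay above all 3 control arrays in this summary. For 4 of the 9 genes (Idh3a, Idh3b, Idh3g, Fh1) every anti-miR-335 value lay above every control value, which was so for 9.7% of the probes above background on all arrays. For 1 gene, Mdh2, every anti-miR-335 value lay below, as for 8.46% of those probes. Without control replicate 1 the counts were 5 higher and 1 lower, Ogdh being the gene added, where 30.6% and 15.6% of those probes did so. In bulk cultures, a change in the share of a cell type and a change in RNA per cell cannot be told apart.

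**Figure D1:**
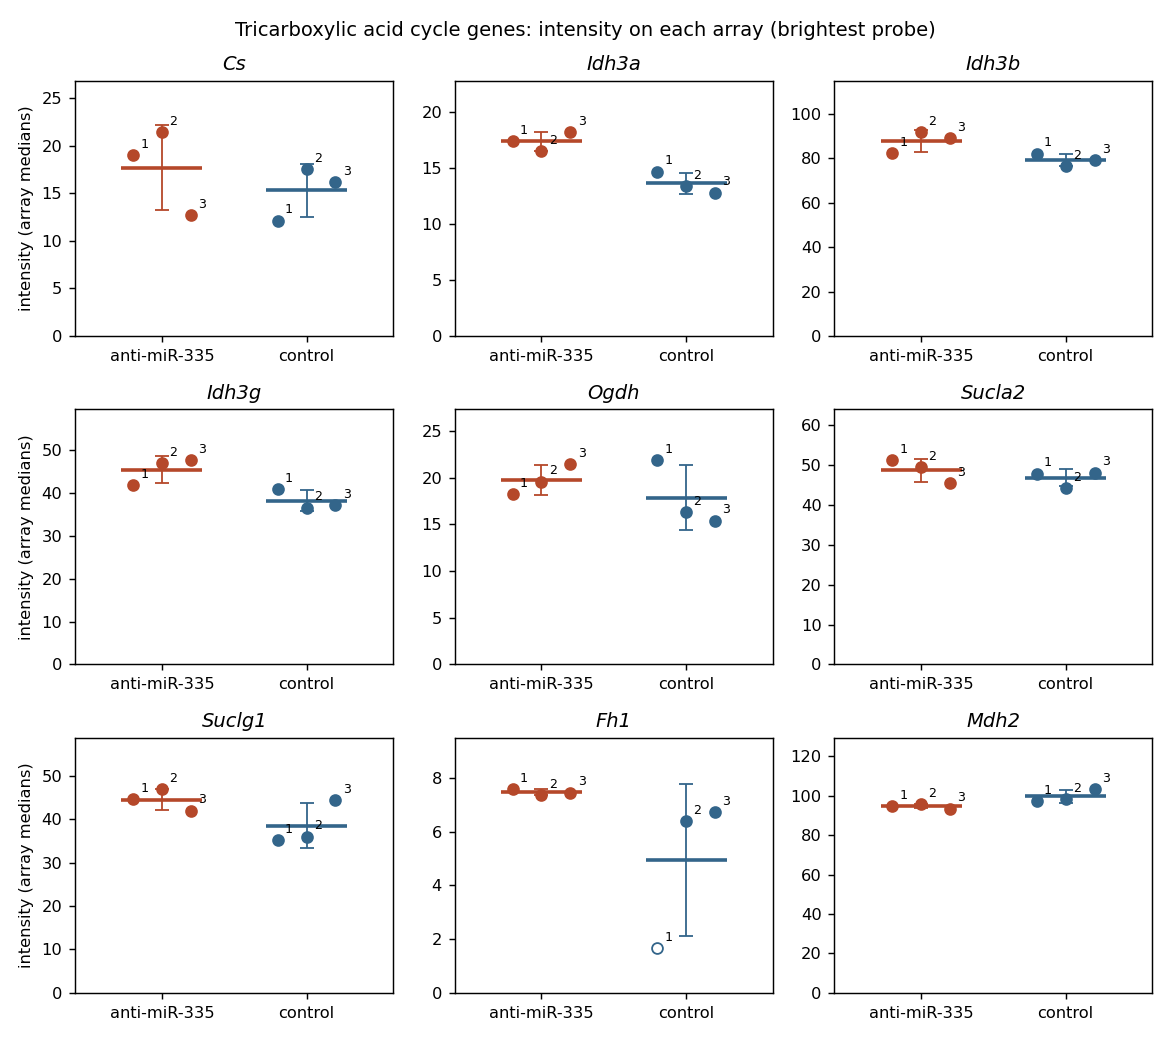
Intensity (in array medians, axes from 0) of the brightest probe of each of the 9 genes on each array; points carry the replicate number, horizontal lines are group means, whiskers are SDs (n = 3 per group), and the open point is the Fh1 spot of control replicate 1 that the scanner software marked. The groups lie apart for Idh3a, Idh3b, Idh3g, Fh1 and Mdh2; Cs is low on anti-miR-335 replicate 3 and control replicate 1, and Ogdh is highest on control replicate 1.

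Citrate synthase, encoded by Cs, joins acetyl-CoA to oxaloacetate and opens the cycle. Its brighter probe read 19.0, 21.4 and 12.7 on anti-miR-335 replicates 1, 2 and 3, against 12.1, 17.6 and 16.2 on the control arrays. The groups overlap, and the lowest arrays are anti-miR-335 replicate 3 and control replicate 1, one of each group. The group means were 17.7 ± 4.50 on anti-miR-335 arrays and 15.3 ± 2.83 on control arrays (SD, n = 3 each), a log2 difference of 0.19 ± 0.20 (SE). Leaving out anti-miR-335 replicate 1, 2 or 3 gave 0.13 ± 0.23, 0.04 ± 0.21 and 0.42 ± 0.17, in that order. Leaving out control replicate 1, 2 or 3 gave 0.04 ± 0.18, 0.30 ± 0.22 and 0.24 ± 0.23, in that order. The difference was 0.47 without the replicate 3 pair and -0.03 without the replicate 1 pair. These arrays lay 0.35 (log2) below the lowest of the others for Cs. These arrays were the lowest pair for 6.62% of the 17843 probes, and by a gap over 0.3 for 131 of them, 0.734%. The pair was chosen after the values were seen, and the cut of 0.3 lies just under the Cs gap, so these shares are no test. Without both arrays the Cs difference was 0.26. Of the cell type markers, Olig1, Olig2 and Sox2 were lowest on the same arrays, and others of their lists were not. Olig1, of the oligodendrocyte lineage, read 18.6, 26.8 and 1.61 on the anti-miR-335 arrays, against 1.93, 24.3 and 25.9 on the controls. Olig2 of that lineage read 1.35, 1.35 and 0.394 on the anti-miR-335 arrays, against 0.515, 1.72 and 1.47 on the controls. Sox2 of neural precursors read 34.1, 45.7 and 26.9 on the anti-miR-335 arrays, against 22.1, 40.1 and 36.4 on the controls. Sox10, in the list of Olig1 and Olig2, was highest on anti-miR-335 replicate 3 (3.40) and lowest on control replicate 1 (2.31). Pax6, in the list of Sox2, was highest on control replicate 1 (18.4). The positive control spots of the array also had their lowest medians on the pair of arrays that was low for Cs. These medians were 4.47, 4.18 and 3.89 on the anti-miR-335 arrays, against 3.49, 5.19 and 4.38 on the controls. The part of these markers in the Cs values was not tested, nor was that of the control spots. A second Cs probe, annotated with an expressed sequence tag, lay below the background limit throughout and gives no fold.

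The NAD-dependent isocitrate dehydrogenase of the cycle is built from the products of Idh3a, Idh3b and Idh3g. The Idh3a subunit carries the main catalytic role, and the other subunits pair with it and set its activity. Idh3a read 17.4, 16.5 and 18.2 on the anti-miR-335 arrays, against 14.7, 13.4 and 12.8 on the controls. The groups do not overlap, with control replicate 1 the highest control. The means were 17.4 ± 0.837 on anti-miR-335 arrays and 13.6 ± 0.950 on control arrays (SD, n = 3 each), a log2 difference of 0.35 ± 0.10 (SE), the largest of the 9 genes after Fh1.

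Idh3g read 42.0, 47.0 and 47.6 on the anti-miR-335 arrays, against 41.0, 36.6 and 37.3 on the controls. The groups are separated only by the small step between anti-miR-335 replicate 1 and control replicate 1. The means were 45.5 ± 3.11 on anti-miR-335 arrays and 38.3 ± 2.35 on control arrays (SD, n = 3 each), and the log2 difference was 0.25 ± 0.11 (SE).

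Idh3b read 82.5, 91.9 and 89.0 on the anti-miR-335 arrays, against 82.2, 76.6 and 79.4 on the controls. Here too the replicate 1 arrays of both groups nearly touch. The means were 87.8 ± 4.82 on anti-miR-335 arrays and 79.4 ± 2.79 on control arrays (SD, n = 3 each), a log2 difference of 0.14 ± 0.11 (SE). All 3 subunit genes thus read higher on every anti-miR-335 array than on any control array, with log2 differences of 0.14 to 0.35. Leaving out arrays or pairs moved these differences between 0.28 and 0.41 for Idh3a, 0.19 and 0.36 for Idh3g and 0.08 and 0.21 for Idh3b.

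Promoters of Idh3b and Idh3g are printed because these subunits of the same enzyme lay higher together, and that of Mdh2 because it is the gene that lay lower. No promoter of Idh3a was available. Each printed promoter covers 250 bases before to 50 after the RefSeq start in GRCm38.p6. They lie at chr2:130284402-130284701 (minus strand) for Idh3b, chrX:73786848-73787147 (minus strand) for Idh3g and chr5:135778399-135778698 (plus strand) for Mdh2. Capitals mark matches on either strand to 4 motifs: the ETS core CCGGAAG, the NRF1 motif, the cAMP response element TGACGTCA and the YY1 motif AAGATGGCG. The motifs were chosen after the promoters and values were seen.
Idh3b: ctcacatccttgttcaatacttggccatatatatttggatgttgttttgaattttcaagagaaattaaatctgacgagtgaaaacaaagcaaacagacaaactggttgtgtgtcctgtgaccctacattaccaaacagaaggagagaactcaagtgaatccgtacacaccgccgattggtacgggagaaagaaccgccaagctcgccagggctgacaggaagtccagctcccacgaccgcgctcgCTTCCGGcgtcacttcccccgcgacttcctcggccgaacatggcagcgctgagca
Idh3g: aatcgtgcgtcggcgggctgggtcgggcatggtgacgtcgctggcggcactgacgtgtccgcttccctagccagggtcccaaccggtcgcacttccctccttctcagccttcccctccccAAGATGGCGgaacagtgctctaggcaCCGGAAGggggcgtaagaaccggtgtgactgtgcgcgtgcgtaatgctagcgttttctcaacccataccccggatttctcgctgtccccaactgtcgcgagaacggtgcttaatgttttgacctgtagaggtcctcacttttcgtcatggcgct
Mdh2: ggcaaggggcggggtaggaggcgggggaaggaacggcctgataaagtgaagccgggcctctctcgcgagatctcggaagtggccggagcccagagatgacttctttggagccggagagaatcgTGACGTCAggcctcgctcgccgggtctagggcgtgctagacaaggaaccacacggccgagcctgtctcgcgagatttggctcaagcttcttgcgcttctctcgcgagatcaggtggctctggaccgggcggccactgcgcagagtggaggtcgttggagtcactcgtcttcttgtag

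The ETS core, which GABPA, a known regulator of nuclear genes for mitochondrial proteins, can bind, was matched in Idh3b at base -5 (as its reverse complement) and in Idh3g at base -104, counted from the start site. It was found in 2 of the 8 member genes with a promoter in the table and in 8.86% of all 32851 promoters of this length. Among the other cycle genes, Dlst, Sdhb and Sdhd hold it, 3 of 7 with a promoter. The YY1 motif was matched in Idh3g at base -130 and in 1.4% of all promoters, and does not overlap the ETS core there. The cAMP response element was matched in Mdh2 at base -127 and in a promoter of Ogdh, and in 1.79% of all promoters. The NRF1 motif was matched in Sucla2 among the 9 genes and in 4.6% of all promoters. Among the other cycle genes, it was matched in Dld, Sdha and Sdhd, 3 of 7 with a promoter. A match describes letters and not a bound site.

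The 2-oxoglutarate dehydrogenase complex makes succinyl-CoA from 2-oxoglutarate and takes its first subunit from Ogdh. Ogdh read 18.2, 19.6 and 21.4 on the anti-miR-335 arrays, against 21.8, 16.3 and 15.4 on the controls. Control replicate 1 was the highest of the 6 arrays, and the groups overlap for that reason alone. The means were 19.7 ± 1.61 on anti-miR-335 arrays and 17.8 ± 3.48 on control arrays (SD, n = 3 each), a log2 difference of 0.16 ± 0.14 (SE). It was 0.32 ± 0.10 without that array, with control values of 15.8 ± 0.620 (SD, n = 2). Leaving out anti-miR-335 replicate 3 gave 0.10 ± 0.16. With control replicate 2 or 3 absent it was 0.10 ± 0.16 and 0.06 ± 0.15, in that order, and with the replicate 3 pair absent it was 0.00 ± 0.18.

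Dlst, which encodes the succinyltransferase core of that complex, had the same order of arrays on its brighter probe. It read 49.98, 51.9 and 52.2 on the anti-miR-335 arrays, against 55.0, 41.7 and 39.3 on the controls, a log2 difference of 0.20 ± 0.13 (SE). Mrps36, whose product links the complex's subunits and was named for the mitochondrial ribosome, was picked out after its values were seen. It read 19.4, 19.7 and 18.6 on the anti-miR-335 arrays, against 20.8, 16.4 and 14.0 on the controls. Control replicate 1 was thus the highest array for Ogdh, Dlst and Mrps36. Dld, the lipoamide dehydrogenase that this complex shares with pyruvate dehydrogenase, read 25.2, 29.1 and 24.6 on the anti-miR-335 arrays, against 22.0, 20.2 and 21.9 on the controls. Its groups do not overlap, and its log2 difference was 0.29 ± 0.11 (SE; adjusted p = 0.488 by limma). Without control replicate 1, the second Dlst probe had a log2 difference of 0.60 ± 0.11 (SE; adjusted p = 0.0252 by limma), the brighter one 0.34 ± 0.09 (adjusted p = 0.0797), so the probes fall on either side of the threshold.

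**Figure D2:**
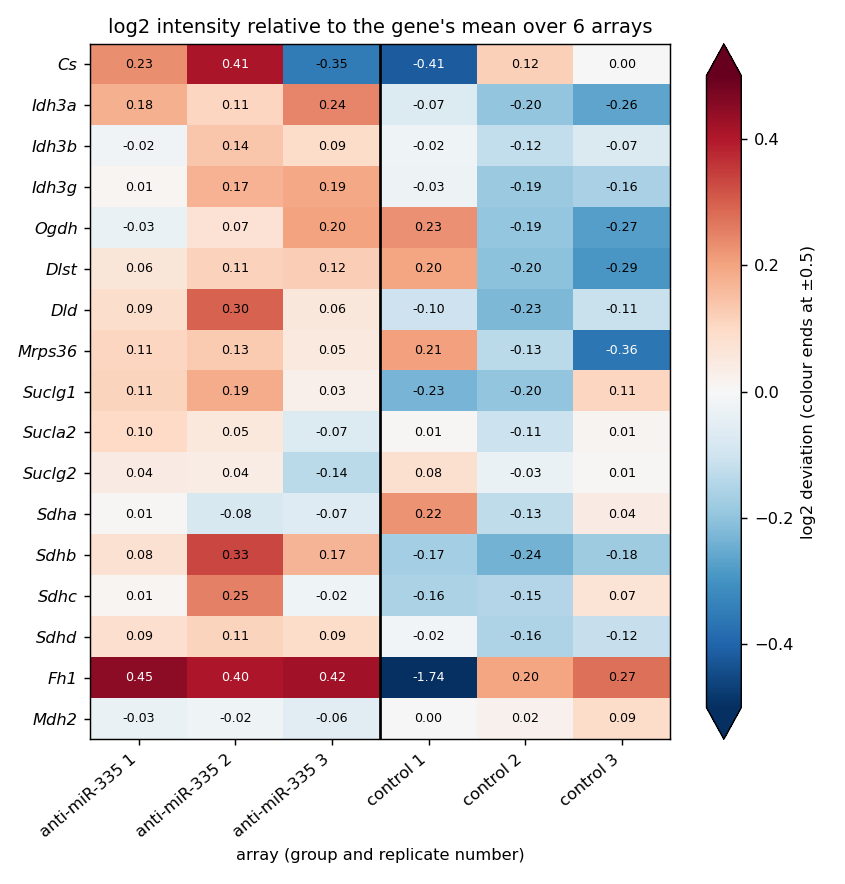
Log2 intensity of each cycle gene (rows, in the order of the cycle, brightest probe) on each array (columns), relative to the gene's mean over the 6 arrays; colour ends at ±0.5 and each cell prints its value. Control replicate 1 is at 0.20 to 0.23 for Ogdh, Dlst, Mrps36 and Sdha, at -0.41 for Cs and at -1.74 for Fh1.

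Succinyl-CoA synthetase turns succinyl-CoA into succinate and yields ATP or GTP, depending on which beta subunit joins the shared alpha subunit. Suclg1, the alpha subunit, read 44.5, 46.9 and 42.0 on the anti-miR-335 arrays, against 35.1, 36.0 and 44.4 on the controls. Control replicate 3 falls among the anti-miR-335 values, so the groups overlap. The means were 44.5 ± 2.48 on anti-miR-335 arrays and 38.5 ± 5.13 on control arrays (SD, n = 3 each), a log2 difference of 0.22 ± 0.12 (SE). It ran between 0.13 without the replicate 2 pair and 0.36 without the replicate 3 pair.

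Sucla2, the beta subunit of the ATP-forming enzyme, read 51.1, 49.4 and 45.5 on the anti-miR-335 arrays, against 47.8, 44.3 and 48.0 on the controls. The groups overlap widely, and the log2 difference was 0.06 ± 0.10 (SE), between 0.01 and 0.13 over the fits that left out an array or pair. Its second probe was above background on 1 anti-miR-335 array and on no control array, with 0.555 ± 0.0558 on the anti-miR-335 arrays and 0.436 ± 0.142 on the controls (SD, n = 3 each), and gives no fold. Suclg2, the beta subunit of the GTP-forming enzyme, is no member. Its 3 probes disagreed, with log2 differences of -0.04 ± 0.10, 0.26 ± 0.10 and -0.23 ± 0.20 (SE) from brightest to dimmest.

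Fumarase, encoded by Fh1, hydrates fumarate to malate. Fh1 read 7.59, 7.37 and 7.46 on the anti-miR-335 arrays, against 1.67, 6.39 and 6.74 on the controls. The groups do not overlap, but control replicate 1 lies far below the other 5 arrays. The means were 7.47 ± 0.113 on anti-miR-335 arrays and 4.93 ± 2.83 on control arrays (SD, n = 3 each), and the log2 difference was 0.85 ± 0.42 (SE). The scanner software gave that spot the flag CL, in which C stands for contamination and L for a signal near background, while the spot of anti-miR-335 replicate 1 was marked G, for good. On control replicate 1, 32 gene probes carry that flag, and for 2 of them, Fh1 included, the other 5 arrays all read above 1. The local background was 75 scanner units there, against a spot mean of 177, and the deposited value was kept. With that spot left out and all arrays kept, the Fh1 log2 difference was 0.19 ± 0.11 (SE), with controls of 6.57 ± 0.246 (SD, n = 2). The groups still did not overlap. Over the fits that left out an array or pair the difference ran between 0.18 and 1.20, and it was under 0.2 wherever control replicate 1 was absent.

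Mitochondrial malate dehydrogenase, encoded by Mdh2, restores oxaloacetate and closes the cycle. Mdh2 read 94.9, 95.6 and 93.5 on the anti-miR-335 arrays, against 97.3, 98.5 and 104 on the controls. It was the gene of the 9 that lay lower on every anti-miR-335 array, by a small step. The means were 94.7 ± 1.07 on anti-miR-335 arrays and 99.8 ± 3.29 on control arrays (SD, n = 3 each), a log2 difference of -0.08 ± 0.11 (SE), and it had the narrowest range over the 6 arrays, with the highest 1.11 times the lowest. Its difference was -0.05 without control replicate 3 and -0.04 without the replicate 3 pair. Mdh1, its cytosolic counterpart, was picked out after its values were seen and had a log2 difference of 0.20 ± 0.13 (SE; adjusted p = 0.683 by limma).

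The remaining enzymes of the cycle were measured for 10 of 14 listed genes. By limma, 0 of the 10 passed and 2 had an unadjusted p under 0.05, both higher, Sdhb and Dld, where 4.91% of all probes were higher at that p. Their median log2 difference was 0.19, 8 were positive, and the groups did not overlap for 4, all with the anti-miR-335 arrays higher, as for 9.7% of the probes above background on all arrays. Succinate dehydrogenase, which oxidises succinate and is also complex II of the respiratory chain, had all 4 subunits measured. Sdhb, its iron-sulphur subunit, read 81.6, 97.5 and 87.1 on the anti-miR-335 arrays, against 68.7, 65.7 and 68.4 on the controls. All anti-miR-335 arrays lay above all controls, control replicate 1 among them, and the log2 difference was 0.39 ± 0.11 (SE; adjusted p = 0.438 by limma). Sdhd, a membrane anchor, lay at 53.5 ± 0.474 on anti-miR-335 arrays and 46.9 ± 2.37 on controls (SD, n = 3 each). Sdhc, the other anchor, lay at 115 ± 12.3 on anti-miR-335 arrays and 103 ± 9.30 on controls. Sdha, the flavoprotein subunit, lay at 101 ± 3.28 on anti-miR-335 arrays and 108 ± 13.1 on controls. Its log2 difference was -0.09 ± 0.13, and -0.004 ± 0.12 without control replicate 1 (SE). Over all 6 arrays the subunits' differences thus had both signs, the negative one smaller than its SE. Sdhaf4, an assembly factor of the flavoprotein subunit, had a log2 difference of 0.26 ± 0.15 (SE).

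**Figure D3:**
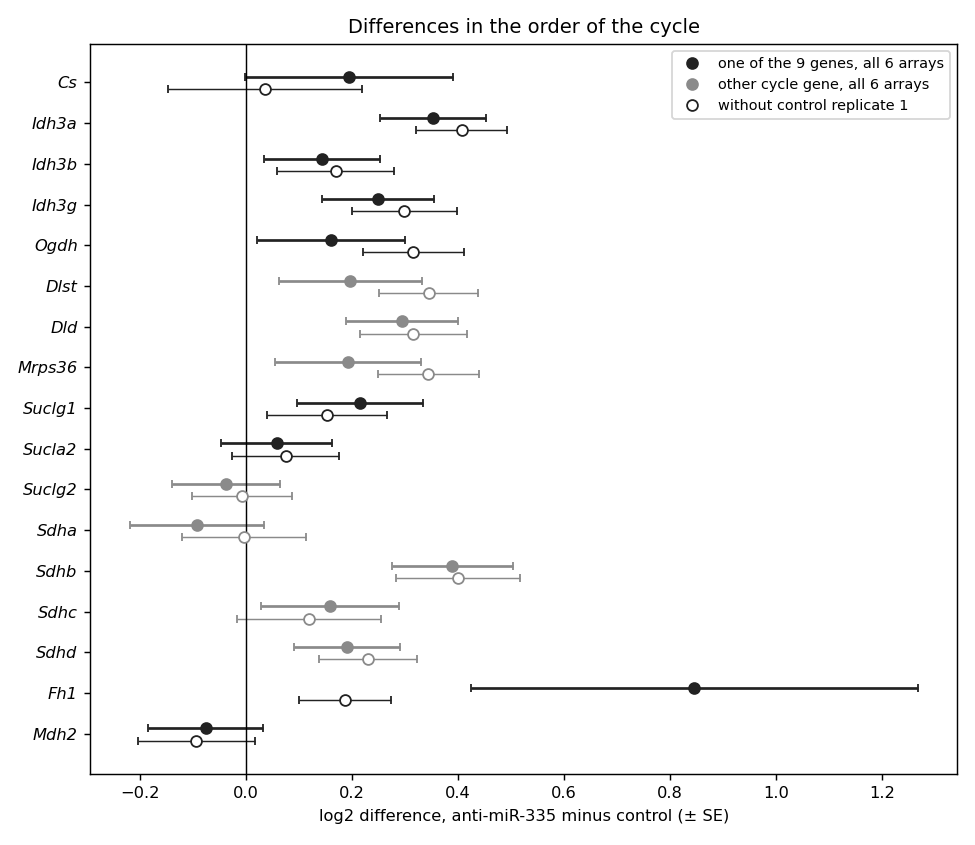
Log2 difference, anti-miR-335 minus control, with its SE from limma, for the 9 genes (black) and 8 further cycle genes (grey), in the order of the cycle; filled points use all 6 arrays and open points leave out control replicate 1. Leaving that array out moves Fh1 to 0.19, Cs to 0.04 and Ogdh to 0.32, and the Idh3 genes by less than their SEs.

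Genes around the cycle were taken from 5 further lists, and over these and the other cycle enzymes 0 of 91 measured genes passed by limma, while 11 higher and 2 lower had an unadjusted p under 0.05, where 4.91% and 4.17% of all probes did. Genes that exchange carbon with the cycle had a median of 0.20 over 20 genes, 17 of them positive. Not all of the 20 were above background: 17 were on all 6 arrays, and Me3 and Pck1 on none. Leaving out control replicate 1 gave 0.27 for the 20 exchange genes and 0.29 for the other cycle enzymes. Idh1, the cytosolic isocitrate dehydrogenase that makes NADPH, lay at 25.2 ± 0.169 on anti-miR-335 arrays and 18.3 ± 2.56 on controls (SD, n = 3 each; adjusted p = 0.394 by limma). Acly, which splits exported citrate to cytosolic acetyl-CoA, lay at 8.64 ± 0.715 on anti-miR-335 arrays and 6.49 ± 0.472 on controls (adjusted p = 0.412 by limma, n = 3 each). Slc25a10, the mitochondrial dicarboxylate carrier, lay at 3.63 ± 0.706 on anti-miR-335 arrays and 2.43 ± 0.301 on controls (adjusted p = 0.445 by limma, n = 3 each).

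Genes that bring pyruvate into the cycle had a median of 0.04 over 9 genes, and of 0.11 without control replicate 1. Of the 9, 5 were positive and 7 were above background on all 6 arrays. The 3 named had small differences of both signs: Pdk4 at -0.16 ± 0.21 and Pdk1 at -0.13 ± 0.14, kinases that switch pyruvate dehydrogenase off, and Mpc1, of the mitochondrial pyruvate carrier, at 0.14 ± 0.11 (log2 difference, SE). The Pdk4 difference was 0.11 without control replicate 1.

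Respiratory chain genes had a median of 0.08 over 22 genes, 18 positive, and of 0.03 without control replicate 1. Ndufs1, of complex I, had a log2 difference of 0.33 ± 0.13, cytochrome c (Cycs) 0.27 ± 0.11 and Atp5o, of the ATP synthase, 0.22 ± 0.14 (SE). The list of mitochondrial biogenesis and mass had a median of 0.09 over 16 genes, 10 positive and 14 above background on all 6 arrays. The coactivator genes Ppargc1a and Ppargc1b, known to raise transcription of mitochondrial genes, had log2 differences of -0.33 ± 0.14 and -0.48 ± 0.21, and the import receptor gene Tomm20 -0.33 ± 0.21 (SE). Glycolysis genes had a median of 0.08 over 14 genes, 10 positive, and of 0.15 without control replicate 1, where that of the 9 cycle genes was 0.17. Among them were Pfkm of phosphofructokinase at 0.25 ± 0.12 and Tpi1, triose phosphate isomerase, at 0.24 ± 0.15 (SE). The second Tpi1 probe had the other sign, -0.09 ± 0.16. Gapdh was at -0.43 ± 0.22 on a probe of 0.776 ± 0.0463 on anti-miR-335 arrays and 1.06 ± 0.196 on controls (SD, n = 3 each), close to background. Without control replicate 1, 3 of the 91 genes passed by limma: Glud1, glutamate dehydrogenase, higher (adjusted p = 0.0424), Ndufs1 higher (adjusted p = 0.0443) and Ppargc1b lower (adjusted p = 0.0437). That is 2 higher and 1 lower of 91, where 2.27% and 0.906% of all probes passed, so the share is near that of all probes. Whether any list differs from the 9 genes was not tested.

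**Figure D4:**
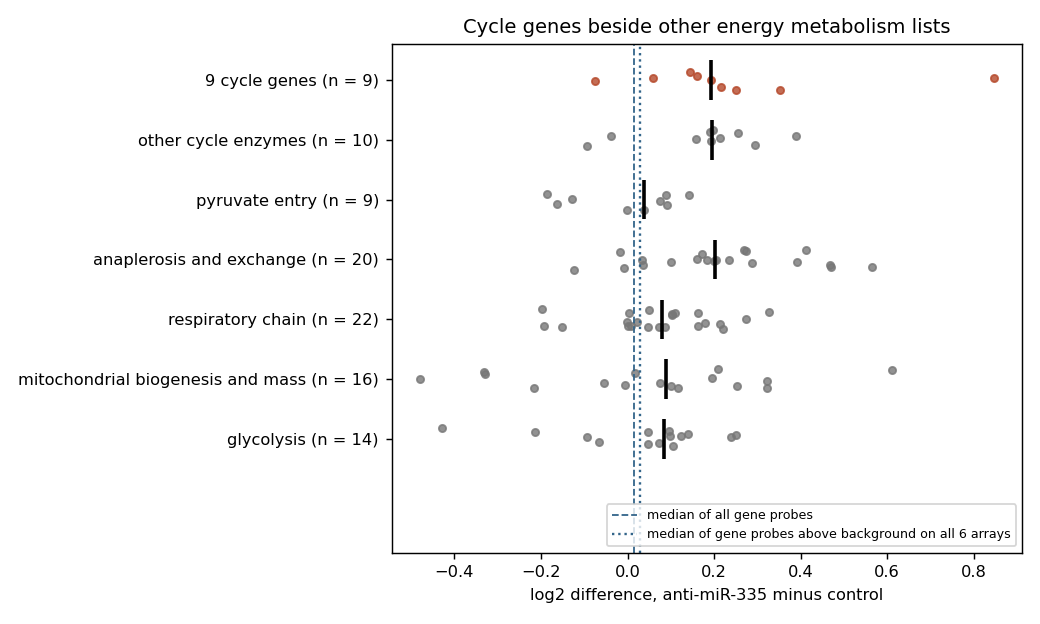
Log2 difference, anti-miR-335 minus control, for each gene (points, brightest probe; vertical scatter is for legibility) of the 9 cycle genes and 6 further lists, with list medians as black bars and the medians over gene probes as blue lines. The median of the 9 genes is 0.19, that of the other cycle enzymes 0.19 and that of the exchange genes 0.20, against 0.04 to 0.09 in the other lists and 0.01 over all gene probes; without control replicate 1, which is not plotted, the 9 genes are at 0.17 and these other lists at 0.03 to 0.15.

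Markers of cell types also differed between the arrays. The 4 neuronal markers summed to 8.80 to 12.2 on the anti-miR-335 arrays and 6.55 to 10.0 on the controls, with 3 of 4 above background on each array. The 4 astrocyte markers summed to 113 to 133 on the anti-miR-335 arrays and 111 to 127 on the controls. The 4 oligodendrocyte lineage markers summed to 22.5 to 49.0 on the anti-miR-335 arrays and 14.4 to 37.5 on the controls. Neural precursor markers summed to 315 to 348 on the anti-miR-335 arrays and 277 to 306 on the controls, without overlap. This sum weighs the brightest markers, Fabp7 and Vim, most. Taken singly, 1 of the 6, Fabp7, lay higher without overlap, as did 9.7% of the probes above background on all arrays. Nes had a negative log2 difference, -0.15. On the anti-miR-335 arrays the sums were 1.94 to 2.25 for microglial, 1.76 to 3.15 for endothelial, 1.74 to 2.07 for mesenchymal and 0.940 to 1.296 for erythroid markers. On the controls they were 1.32 to 1.88, 2.32 to 3.23, 1.72 to 2.45 and 1.10 to 1.33 in the same order. Dcx of young neurons, Aqp4 of astrocytes and Pdgfra of oligodendrocyte precursors lay higher on every anti-miR-335 array, with log2 differences of 1.02, 0.69 and 1.01 and an adjusted p of 0.333 each by limma. Control replicate 1 was singled out after the values were seen. Leaving it out gave adjusted p-values of 0.0252 for Dcx, 0.0159 for Aqp4 and 0.00833 for Pdgfra by limma. Other markers of the same lists had negative differences: S100b of astrocytes -0.10, Olig1 -0.20 and Olig2 -0.29, the last of these -0.83 and Olig1 -1.43 without control replicate 1. The part of these markers in the values of the cycle genes was not tested.

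The genes whose pattern over the 6 arrays was most like the mean of the 9 were found by the root mean square difference of centred log2 intensities, over 12126 single-symbol probes above background on all arrays. They were Cops8 (0.027), St3gal1 (0.028), Ifnl3 (0.034), 2810001G20Rik (0.036) and Inpp5k (0.038), where the median over probes was 0.21. The pattern they match carries the marked Fh1 spot: the mean of the 9 on control replicate 1 was -0.25 with Fh1 and -0.07 without it. With Fh1 left out, the nearest genes were Ap5s1, Nsa2, Zwint, Idnk and Pkp4 (0.020 to 0.031), and 0 of the 5 were shared.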

How the data were processed

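The files hold linear intensities that the authors divided by each array's median, per the labels. CodeLink Expression Analysis extracted them, per the file headers, and the scanner values show that the local background was subtracted. Scanner output was used for replicate 1 of each group, where all 35976 (control) and 36032 (anti-miR-335) deposited values equalled its normalized intensity within 0.0001. Gene names came from the platform annotation and the RefSeq table of GRCm38.p6, through gene identifiers, which changed 0 symbols; 21615 of 34967 gene probes have 1 symbol. The background limit on each array was the negative control spots' median plus 3 scaled median absolute deviations, 0.492 to 0.692. Between 59.9% and 67.3% of gene probes exceeded it, and 3 arrays per group limit the precision. Values below the 5th percentile of positive intensities (0.163) were raised to it, log2 was taken, and the anti-miR-335 arrays were set against the controls by limma (version 3.58.1, under R 4.3.3), with lmFit and a trended eBayes, two-sided and with no covariate, adjusting over 34847 probes with at least 2 values per group; the scripts were tested on simulated data. A gene is represented by its brightest probe. Genes around the cycle were named by rule: from each list those that passed, otherwise the 3 largest differences above background on all 6 arrays, and the enzymes that complete the cycle. The members and lists were chosen with earlier results of these data known.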

Additional observations from a re-analysis of the deposited data

How the results depend on the processing

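The count of 0 probes past an adjusted p of 0.05 stayed at 0 with the replicate block, a lower or higher floor, a filter on dim probes and an untrended fit. It was 1 under quantile scaling, 3 under a robust trend and 474 when arrays were weighted. Over the fits that leave out an array or pair it was 0 to 1571, with 1571 without the replicate 1 pair and 1100 without control replicate 1. Leaving out control replicate 1 with anti-miR-335 replicate 3, chosen after seeing the data, gave 6. The 91 genes around the cycle gave 0 to 3 calls over the leave-out cases and 0 otherwise. The median log2 difference of the 9 cycle genes was 0.19 with the replicate block, as without it, 0.13 after quantile normalization and 0.13 to 0.23 over the leave-out cases. The count of cycle genes above the controls without overlap was 3 after quantile normalization, 4 to 7 over the leave-out cases (7 without anti-miR-335 replicate 3 and without the replicate 3 pair), 8 without control replicate 1 and anti-miR-335 replicate 3, and 4 with the marked Fh1 spot left out. Cs turned sign without the replicate 1 pair (-0.03). The cause was not tested. The scanner values of the replicate 1 pair alone, 1 array per group, were also corrected for background by normexp. There 9 of the 11 member probes had positive log2 differences. Ogdh was at -0.20, Mdh2 at 0.02, Idh3b at 0.06 and Idh3g at 0.09, so the signs of Ogdh and Mdh2 differed from those over all arrays. In the deposited values of the same pair, anti-miR-335 against control, Ogdh read 18.2 against 21.8 and Mdh2 94.9 against 97.3. Ogdh thus kept the direction of the pair's deposited values, and Mdh2 did not. The labels tie no shared source to a replicate number. Arrays with the same number had correlations of their deviations of -0.22, -0.04 and -0.15 over 21356 probes, none of them positive. With 3 arrays per group these cannot show whether equal numbers share a source. The block left the count at 0, as in the main fit, and so says nothing on pairing.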

Other observations

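Pkm, pyruvate kinase, was chosen after its values were seen. It read 31.1, 40.3 and 11.5 on anti-miR-335 replicates 1, 2 and 3, against 13.9, 36.3 and 32.8 on the control arrays, so it was low on the same arrays as Cs, Olig1, Olig2 and Sox2. These arrays lay 1.16 (log2) below the lowest of the others for Pkm. The positive control spots had their lowest medians on these arrays too, and their part in the Pkm values was not tested. The group means were 27.6 ± 14.7 on the anti-miR-335 arrays and 27.7 ± 12.0 on the controls (SD, n = 3 each).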
